A study of Mus musculus with 4 samples.

Results

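Border-associated macrophages of the mouse spinal cord were taken from 4 single-cell RNA libraries as cells that carried the complement genes of tissue macrophages and the marker genes of border macrophages, but no RNA of the microglial receptor P2ry12. Of 20454 kept cells, 56 met the rule (0.274%, exact 95% binomial interval 0.207 to 0.355%). A member had at least 0.3% of its unique molecular identifiers (UMIs, each standing for 1 captured RNA molecule) in C1qa, C1qb and C1qc together, UMIs of at least 3 of the 7 genes Mrc1, Cd163, Lyve1, F13a1, Cbr2, Folr2 and Pf4, no P2ry12 UMI and fewer than 5 Gpnmb UMIs. The members were thus chosen by the measured UMIs of these genes, so their levels are given as a description.

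The study profiled cord cells of mice with and without the P301S tau transgene, with an intact or a deleted CD8 gene per the labels. Each of the 4 groups is 1 library, for which the cords of 2 saline-perfused mice were put together. P301S-negative CD8 WT mice (called P301S neg) were 30 weeks old. P301S homozygous CD8 WT mice (P301S hom) were sampled at 30 and at 33 weeks, and the fourth library is labelled P301S homozygous CD8 KO at 30 weeks. In all groups a kit made for tumours was used to dissociate the warmed tissue, and beads took away the myelin. The promoter of the transgene, and whether the meninges were removed, are not given in the sources used here. With 1 library per group no test between groups is possible, so every interval below covers counting error only and every difference is one between libraries.

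Border-associated macrophages live at the edges of the central nervous system, in the meninges, around blood vessels and in the choroid plexus, whereas microglia live in the tissue itself. They are long-lived scavenger cells that take up proteins and lipids from the fluid around vessels, and they carry the mannose receptor Mrc1 and the haemoglobin receptor Cd163. Some of them also carry MHC class II molecules, which present peptides to CD4 T cells, and in mouse meninges class II-high and Lyve1-high border macrophages are known as separate kinds.

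The libraries held 36331214 to 43531426 UMIs in 5107 to 6433 barcodes, and 4751 to 5738 cells passed the filters in each. The members summed to 43193 UMIs in P301S neg, 114577 in P301S hom at 30 weeks, 111629 at 33 weeks and 80755 in the library labelled CD8 KO. In that last library Cd8a was highest over all kept cells, at 32.6 CPM (a gene's UMIs as parts of a fixed total per library) against 1.45 to 2.18 in the others, and lowest in T cells, at 22.3 CPM in 67 cells against 229 to 304 CPM in 35 to 77 cells. The members there held 4 Cd8a UMIs and those of the other libraries 0. The libraries also differed in sex, read from Xist and Y-linked UMIs. Kept cells were 2081 female and 1589 male in P301S neg, 3778 and 0 in P301S hom at 30 weeks, 1701 and 1315 at 33 weeks, and 8 and 3137 in the library labelled CD8 KO. Barcodes shared between libraries numbered 35 among kept cells, none of them a member.

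Of the 56 members, 8 held UMIs of at least 6 of 8 endothelial genes and are called mixed cells here. None was in P301S neg, 4 were in P301S hom at 30 weeks, 2 at 33 weeks and 2 in the library labelled CD8 KO. Their median was 15533.5 UMIs against 4738 in the other members, and they held 45.7%, 38.7% and 37.9% of the member UMIs of their libraries. Their median C1q share was 0.457% against 1.66%. The other members had UMIs of 0 to 2 endothelial genes. Since P301S neg has no such cell, each comparison has some values given without them too. A value given only once includes the mixed cells unless stated otherwise.

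The members made up 0.157% of kept cells in P301S neg (9 of 5738, 0.0718 to 0.298%), 0.316% in P301S hom at 30 weeks (15 of 4751, 0.177 to 0.520%), 0.373% at 33 weeks (18 of 4830, 0.221 to 0.588%) and 0.273% in the library labelled CD8 KO (14 of 5135, 0.149 to 0.457%). The intervals overlap in every pair. Without the mixed cells the shares were 0.157%, 0.232%, 0.331% and 0.234%. As a share of all C1q cells, which include the microglia, the members were 0.629%, 0.736%, 1.06% and 0.549%. They were thus rare in all 4 libraries, and a difference in their share was not detectable at this number of cells.

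The rule genes were spread unevenly over the members. Pf4, a chemokine of platelets and border macrophages, had UMIs in all 56 cells, at 1320, 1877, 1138 and 1226 CPM in P301S neg, P301S hom at 30 weeks, P301S hom at 33 weeks and, last, the library labelled CD8 KO, an order kept below. Mrc1 stood at 810, 541, 645 and 594 CPM, and F13a1, the A subunit of clotting factor XIII, at 787, 428, 475 and 334 CPM. Cd163 stood at 278, 244, 448 and 310 CPM. Lyve1, a hyaluronan receptor, had 26 UMIs in 10 of the 56 cells, so the members were not a Lyve1-high group. Folr2, the beta folate receptor, was at 232, 209, 53.7 and 74.3 CPM, and 17 of its 24 UMIs at 30 weeks in P301S hom came from 1 cell.

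Genes that the rule did not use also marked these cells as border macrophages. Ms4a7, a membrane protein of border macrophages, was at 718, 716, 600 and 669 CPM and had UMIs in 49 of the 56 cells. Stab1, a scavenger receptor, was at 556, 515, 430 and 483 CPM, Dab2, an adaptor of endocytosis, at 833, 349, 529 and 557 CPM, and the transcription factor Maf at 718, 585, 627 and 334 CPM. Csf1r, the receptor for the growth factor that macrophages need to live, was nearly level at 926, 986, 985 and 941 CPM. All 18 listed border macrophage genes outside the rule summed to 6853, 3919, 3897 and 3802 CPM in the members. Homeostatic microglia had this list at 1053 to 1227 CPM, so it was higher in the members but not confined to them. Of the genes of other cells, Sall1 and Slc2a5 of microglia had no UMI, Tmem119 had 1 UMI, and all 6 T and NK cell genes had none. Of 9 monocyte genes 5 were at 0, Ccr2 and Ly6c2 among them, and the list summed to 0, 340, 17.9 and 49.5 CPM. The marrow and red pulp macrophage list was not near 0: Cd5l had no UMI, but 5 of its 7 genes were found, and it summed to 833.5, 375, 537.5 and 421 CPM against 55.3 to 101 CPM in homeostatic microglia, with Vcam1 at 92.6, 209, 466 and 359 CPM. The part of such cells in the results was not tested beyond leaving out members with Spic, Vcam1 or Cd5l. Among microglial genes Fcrls stood apart, at 486, 524, 564 and 508 CPM, and Siglech was at 139, 96.0, 116 and 24.8 CPM.

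At the border of the rule, the 14 members with exactly 3 rule genes had Ms4a7 at 674 CPM and those with 4 or more at 667 CPM, while 18 C1q cells with exactly 2 rule genes had it at 373 CPM. Other genes were less alike: Stab1 was at 363, 520 and 267 CPM in cells with exactly 3, with 4 or more and with exactly 2, Dab2 at 376, 553 and 231 CPM, and Maf at 324, 623 and 391 CPM. A P2ry12 UMI kept out 13 cells, with Ms4a7 at 625 CPM, and a low C1q share kept out 34, with Ms4a7 at 50.3 CPM and the endothelial receptor Flt1 at 3017 CPM.

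**Figure D1:**
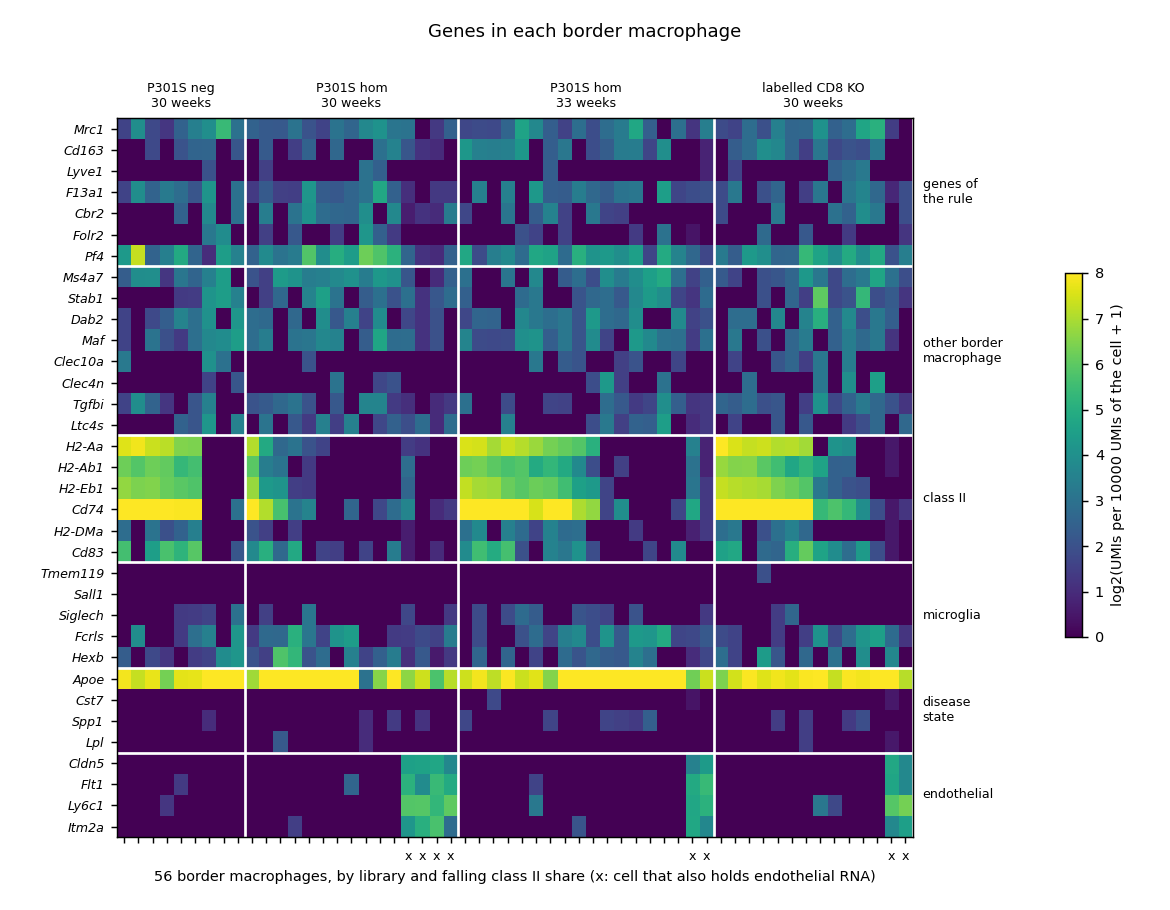
Heat map of the 56 members (columns, by library, from the highest to the lowest class II share and with the 8 mixed cells last, marked x) for rule genes, other border macrophage genes, class II, microglial, disease-state and endothelial genes (rows). Colour is log2 of the gene's depth-scaled UMIs plus 1, with values above the top of the bar drawn in its last colour. Pf4 is filled in every column, class II rows fade from left to right within each library, and the endothelial rows are bright in the 8 mixed cells.

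Beside homeostatic microglia of the same library (C1q cells with P2ry12, no Cst7 and fewer than 3 rule genes), the members differed in the same direction in all 4 libraries at 38 higher and 177 lower genes of 2320 compared, counted at 2-fold. The rule chose the cells on this contrast, so the genes are a description. Ranked by the smallest fold of the 4 libraries, H2-Eb1 led the higher genes at 24.6 to 669-fold, and H2-Aa was 18.0 to 1133-fold higher (5 CPM added to both levels, as in all folds of this paragraph). Dab2 was 19.6 to 77.8-fold higher, the interferon-induced membrane gene Ifitm2 15.2 to 36.4-fold, and Ccl7, a monocyte-attracting chemokine, 11.2 to 99.3-fold. Lyz2, the lysozyme of myeloid cells, was 5.58 to 19.3-fold higher and Tgfbi, a matrix protein, 5.31 to 10.8-fold. On the other side Tmem119 was 46.8 to 193-fold lower, Nav3 25.7 to 30.8-fold, the actin bundler Fscn1 24.4 to 80.1-fold, the fructose transporter Slc2a5 18.1 to 30.2-fold, Sall1 16.8 to 27.0-fold and Lag3 16.7 to 49.8-fold. Both groups carried Csf1r, which without added CPM was 2.39 to 2.88-fold lower in the members.

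The MHC class II genes divided the members. H2-Aa and H2-Ab1 encode the chains of the I-A molecule, H2-Eb1 the beta chain of I-E, and Cd74 the invariant chain that guides class II molecules to the endosome. On mouse build GRCm38 (mm10) H2-Aa is at chr17:34282744-34287823 on the minus strand and H2-Eb1 at chr17:34305867-34316674 on the plus strand, both protein-coding genes of the class II region. The 250 bases before the start of each are printed because these genes varied together in the members. They are from RefSeq (GRCm38.p6), at chr17:34287824-34288073 for H2-Aa and chr17:34305617-34305866 for H2-Eb1, written 5′ to 3′ along the gene, and capitals mark CCAAT on either strand (ATTGG on the other), the letters of the Y box of class II promoters.
H2-Aa: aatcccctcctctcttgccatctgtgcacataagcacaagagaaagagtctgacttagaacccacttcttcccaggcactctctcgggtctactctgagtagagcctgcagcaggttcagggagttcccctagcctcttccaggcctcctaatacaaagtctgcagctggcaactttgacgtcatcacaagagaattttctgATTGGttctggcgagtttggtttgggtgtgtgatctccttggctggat
H2-Eb1: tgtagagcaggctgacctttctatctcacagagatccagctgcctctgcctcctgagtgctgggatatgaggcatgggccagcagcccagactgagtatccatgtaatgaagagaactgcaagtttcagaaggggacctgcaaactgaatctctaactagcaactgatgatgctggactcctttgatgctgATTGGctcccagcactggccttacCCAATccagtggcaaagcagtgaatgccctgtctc
The motif begins 48 bases before the start of H2-Aa, and 59 and 35 bases before that of H2-Eb1. These letters are common: 33.85% of 32851 promoters of the same length hold them on 1 strand or the other.

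H2-Aa was at 8937 CPM in P301S neg, 1004 in P301S hom at 30 weeks, 4479 at 33 weeks and 6984 in the library labelled CD8 KO. H2-Eb1 followed the same order, at 4955, 864, 3055 and 4408 CPM, as did H2-Ab1 (3982, 524, 1819 and 2799 CPM) and Cd74 (20976, 3692, 11386 and 16395 CPM). P301S hom at 30 weeks was the lowest library for all 4 genes and P301S neg the highest. Without the mixed cells P301S hom at 30 weeks was still the lowest, but the library labelled CD8 KO was the highest for all 4, with H2-Aa at 8937, 1786, 6840 and 11218 CPM. Single cells carried much of these sums: 86 of the 115 H2-Aa UMIs in P301S hom at 30 weeks came from 1 cell, against 101 of 386, 84 of 500 and 204 of 564 in P301S neg, at 33 weeks and under the CD8 KO label.

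Cell by cell, the share of a member's UMIs in H2-Aa, H2-Ab1 and H2-Eb1 together had a median of 1.90% in P301S neg, 0.01235% in P301S hom at 30 weeks, 0.736% at 33 weeks and 1.22% in the library labelled CD8 KO. Each library held members with none of these UMIs, and the highest members reached 3.725%, 3.02%, 4.15% and 5.235%. With a limit of 0.5% of UMIs, class II-high members were 6 of 9 (66.7%, 29.9 to 92.5%), 2 of 15 (13.3%, 1.66 to 40.5%), 10 of 18 (55.6%, 30.8 to 78.5%) and 7 of 14 (50%, 23.04 to 76.96%), and 7 of the 56 members lay within 2-fold of the limit. The interval of P301S hom at 30 weeks overlaps those of the other 3 libraries. None of the 8 mixed cells was class II-high.

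P301S hom at 30 weeks was the lowest library at equal total depth too, though with overlapping intervals. With each cell thinned to 1000 UMIs (1 cell of P301S neg was left out), H2-Aa was found in 62.5%, 26.7%, 55.6% and 64.3% of members, and in 66.7%, 53.3%, 66.7% and 71.4% before thinning. The thinned interval was 7.79 to 55.1% in P301S hom at 30 weeks, 24.5 to 91.5% in P301S neg and 30.8 to 78.5% at 33 weeks. Mixed cells were thinned too, and their 1000 UMIs include endothelial RNA. Granulocyte-type cells, which should lack the gene and can hold it from free RNA, had H2-Aa in 0.650%, 0.527%, 0.201% and 1.18% of thinned cells and in 2.13%, 1.15%, 0.873% and 1.43% before thinning. Their median depth was 2832, 2794, 2233 and 1932 UMIs, against 4806, 6336, 4573 and 4571 in the members. The other C1q cells had it, thinned, in 1.10%, 7.74%, 3.70% and 7.49%.

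Sex went with the class II split. Among members with a sex call, 5 of 20 female cells (25%) and 10 of 14 male cells (71.4%) were class II-high. Within libraries the high cells were 1 of 3 female and 4 of 4 male in P301S neg, and 3 of 5 female and 5 of 7 male at 33 weeks. P301S hom at 30 weeks had no male member (1 of 12 female cells high). The library labelled CD8 KO had no member called female (1 of 3 male cells high, and 7 of all 14 members). Sex and library cannot be told apart in these libraries.

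**Figure D2:**
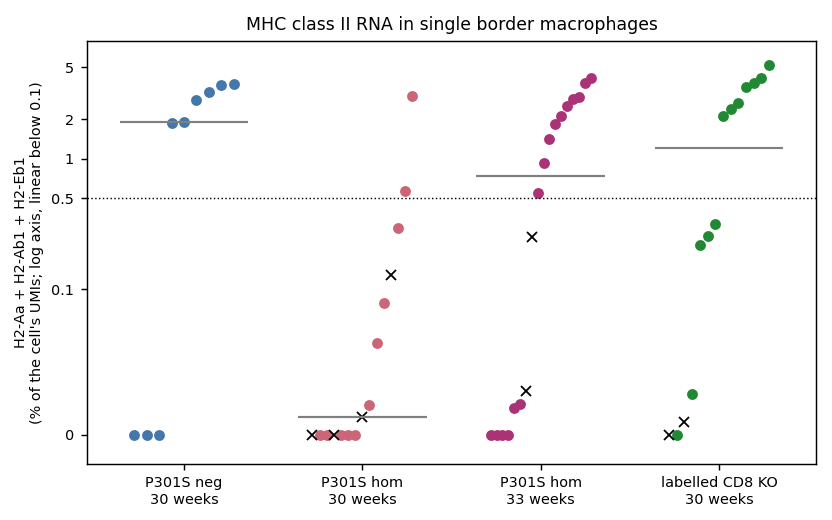
Percent of a cell's UMIs in H2-Aa, H2-Ab1 and H2-Eb1 (vertical axis, logarithmic but linear near 0) for each member, by library (horizontal axis). Crosses are mixed cells, grey bars are medians and the dotted line is the 0.5% limit. P301S hom at 30 weeks has 2 of 15 cells above the line, against 6 of 9, 10 of 18 and 7 of 14 in the other libraries.

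Leaving out the mixed cells, the 25 class II-high members were set beside the 23 class II-low ones, pooled over libraries and given by library where counts allow. Stab1 was 6.43-fold higher in the low cells, and so in each library: 1564 against 68.7 CPM in P301S neg, 674 against 85.2 and 918 against 267 CPM in P301S hom at 30 and 33 weeks, and 1362 against 96.5 CPM under the CD8 KO label. These Stab1 levels rest on few UMIs, 17 in all high and 107 in all low cells. P301S neg has 3 low cells, 1 of which held 9726 UMIs and 16 of Stab1, and P301S hom at 30 weeks has 2 high cells. The lysosomal protease Ctsd (4.36-fold), Fcrls (3.69-fold), Ms4a7 (2.50-fold) and Mrc1 (2.10-fold) were also higher in the low cells of all 4 libraries, on the same few cells. Pooled, the low cells had more Clec4n, a C-type lectin (39 UMIs against 2), Folr2 (4.59-fold), Ltc4s, a leukotriene synthase (2.79-fold), the lipid transfer gene Pltp (2.72-fold), Cbr2 (2.48-fold) and Apoe (1.93-fold). Some of these turned in single libraries: Folr2 (129 CPM in high and 52.4 in low cells) and Pltp (418 and 209.5 CPM) under the CD8 KO label. Cbr2 turned at 33 weeks (364 and 73.5 CPM) and Ltc4s in P301S hom at 30 weeks (341 and 297 CPM). Of the UMIs of the low cells, 17 of 36 for Folr2 and 17 of 52 for Ltc4s were in 1 cell. The high cells had more H2-DMa, which loads peptides on class II (64 UMIs against 2), Il1b (7.67-fold), Cd83, a stabiliser of surface class II (5.19-fold, and in all 4 libraries), the kinase Pim1 (3.27-fold) and the nuclear receptor Nr4a1 (2.87-fold). Il1b turned in P301S hom at 30 weeks, at 0 CPM in the 2 high and 238 CPM in the low cells. The scavenger receptors Cd163 (513 CPM in high and 424 CPM in low cells) and Cd36 (221 and 226 CPM) were near level. Because the split used class II genes of the same cells, these values are a description.

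The comparison of P301S hom with P301S neg at 30 weeks asks what the tau transgene went with in these cells. All 4 measured class II genes were lower in P301S hom: H2-Aa by 8.90-fold (counting interval 7.21 to 11.1), H2-Ab1 by 7.60-fold (5.64 to 10.4), H2-Eb1 by 5.73-fold and Cd74 by 5.68-fold. Of the 746 genes measured, those with 30 or more UMIs over the pair of libraries, 7.51% were 2-fold lower and 21.2% 2-fold higher. Without the mixed cells the same 4 genes were 5.01, 5.05, 3.42 and 3.26-fold lower, with 6.72% of 461 genes 2-fold lower and 9.98% higher. The median log2 ratio of the class II genes, with 5 CPM added, was -2.71 against 0.09 over all measured genes. P301S hom at 30 weeks has no male cell while P301S neg has both sexes. In female cells alone (12 against 3) the log2 ratio of the summed list was -1.65, against -2.68 in all members. The 12 female cells include the 4 mixed cells of P301S hom, and the female ratio was not taken without them. These mixed cells held 52410 UMIs with class II shares of 0 to 0.130%, so they lower the P301S hom side of that ratio. On each side only 1 female cell was class II-high, with 86 H2-Aa UMIs in P301S hom and 68 in P301S neg. In the other C1q cells of the same libraries H2-Aa stood the other way, at 140 CPM in P301S hom and 74.9 CPM in P301S neg, 1.88-fold higher.

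Chemokines differed in both directions between these libraries. Ccl3 was at 5904 CPM in P301S neg and 899 in P301S hom, 6.57-fold lower (3.56-fold without mixed cells). Ccl2 was at 741 against 1903 CPM, 2.57-fold higher (4.73-fold without mixed cells), and Ccl7 at 185 against 1012 CPM, 5.47-fold higher (10.1-fold), with UMIs in 2 and 6 cells. At 33 weeks and under the CD8 KO label Ccl2 stood at 2571 and 2427 CPM and Ccl7 at 1406 and 1399 CPM, so P301S neg was the lowest library for both. Under the CD8 KO label, however, 1 cell held 166 of the 196 Ccl2 UMIs and 86 of the 113 Ccl7 UMIs. Without it Ccl2 was at 403 CPM there, below P301S neg, and Ccl7 at 363 CPM. In the other C1q cells Ccl2 stood the other way, at 593 CPM in P301S neg and 258 in P301S hom. Of 14 cytokine and chemokine genes measured, 3 were 2-fold higher and 4 lower, and 5 and 2 of 13 without mixed cells.

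The lowest ratios outside class II included genes of several kinds. Cd83 was 6.06-fold lower (3.48-fold without mixed cells), Cd14, the co-receptor for endotoxin, 3.84-fold (2.20-fold), Plek, a signalling protein of blood cells, 4.29-fold (2.63-fold), Ifi207 5.31-fold (3.76-fold), and Egr1 3.40-fold (2.29-fold). Of 18 dissociation-related early genes, 6 were 2-fold lower and none higher, with a summed level of 55541 CPM in P301S neg and 28339 in P301S hom. These genes respond to warm dissociation, and their part in the lower chemokine levels was not tested. The 10 highest ratios, among them Itm2a, Cldn5, Slco1a4, Apold1, Id1, Id3 and Ahnak, belonged to genes with 0 UMIs in P301S neg, where 3 UMIs stand for 69.5 CPM. Several are endothelial genes, and all 118 Cldn5 UMIs in P301S hom were in the 4 mixed cells. The summed endothelial list was at 69.5 CPM in P301S neg and 7506 CPM in P301S hom, and at 39.9 to 87.7 CPM over the libraries without the mixed cells.

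**Figure D3:**
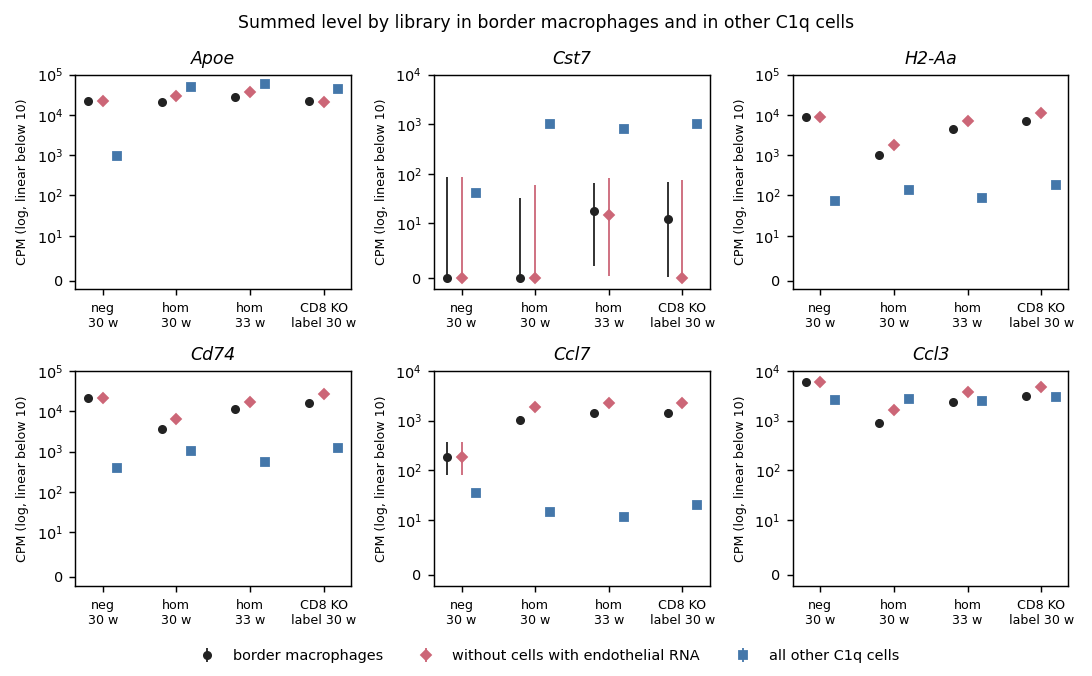
CPM of Apoe, Cst7, H2-Aa, Cd74, Ccl7 and Ccl3 by library (logarithmic axis, linear near 0) in the summed members, in the members without mixed cells and in all other C1q cells, with exact Poisson 95% intervals. H2-Aa, Cd74 and Ccl3 are lowest in the members of P301S hom at 30 weeks. The Apoe level of the other C1q cells goes from 947 CPM in P301S neg to 44388 CPM or more in the rest. That of all members, mixed cells included, stays between 20266 and 26946 CPM and spreads more widely without the mixed cells.

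The library labelled CD8 KO was set beside P301S hom at 30 weeks, for what the CD8 label went with. All 5 measured class II genes were higher under the label: H2-Aa 6.96-fold (5.68 to 8.58; 6.28-fold without mixed cells), H2-Ab1 5.34-fold, H2-Eb1 5.10-fold and Cd74 4.44-fold, where 3.39% of 944 measured genes were 2-fold higher and 8.69% lower. Without the mixed cells these shares were 6.72% and 7.94% of 491 genes. The list's median log2 ratio was 2.41 against -0.08 over all genes. Il1b, an inflammatory cytokine, was at 122 CPM in P301S hom and at 1251 CPM with the CD8 KO label, 10.2-fold higher, on 14 against 101 UMIs, 54 of them in 1 cell. Ccl3 was 3.43-fold higher, Plek 3.60-fold, the kinase Pim1 3.88-fold, Mpeg1, a pore-forming protein of macrophages, 3.69-fold (2.62-fold without mixed cells), the complement receptor C3ar1 3.02-fold and Cd83 2.56-fold. Cxcl10, an interferon-induced chemokine, was 3.04-fold higher, with 35 of 60 UMIs in 1 cell under the label and 27 of 28 in 1 cell in P301S hom. Of 15 cytokine and chemokine genes 7 were 2-fold higher and 2 lower. Folr2 was 2.82-fold lower, on 6 against 24 UMIs, but 17 of the 24 were in 1 cell of P301S hom, without which it stood at 66.8 CPM there, below the 74.3 CPM under the label. The 10 lowest ratios included the pericyte gene Rgs5 (61 UMIs in P301S hom, 2 without mixed cells), Cxcl12 (54 and 2) and Id1, Adamts1 and Tmem252, which had no UMI there without the mixed cells. S100a6 was also among them and lay outside the mixed cells, with 53 of its 63 UMIs in 1 other cell.

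This comparison pairs a library without male cells with one of almost only male cells. Set instead beside the 7 male members at 33 weeks, the 3 male members of the library labelled CD8 KO had a lower summed class II level. The log2 ratio of the summed list was -0.90, and that of Ccl3 was -0.48. A mixed cell with 23292 UMIs is among these 3, and another with 29814 UMIs is among the 7. The class II shares of these mixed cells were 0.00859% and 0.252%. The other males had shares of 4.14% and 0.0281% under the label, and of 0 to 4.15% at 33 weeks. The male ratio was not taken without the mixed cells, so it does not show how the other males compare. Under the label 11 members had no sex call. The genotype label, sex and the pooled mice cannot be told apart here.

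At 33 against 30 weeks in P301S hom, class II was higher at the later age in all 6 measured genes, where 4.02% of 1120 measured genes were 2-fold higher and 7.05% lower. H2-Aa was 4.46-fold higher (3.83-fold without mixed cells), H2-Ab1 3.47-fold (3.36-fold), H2-Eb1 3.54-fold (3.19-fold), Cd74 3.08-fold (2.71-fold) and H2-DMb1, part of the peptide loader, 6.45-fold. Without mixed cells 3.89% of 565 genes were 2-fold higher and 7.26% lower. The list's median log2 ratio was 1.98 against -0.10 over all genes. Il1b was 5.06-fold higher and Ccl3 2.61-fold (2.29-fold). Cxcl1, a neutrophil attractant, was at 26.2 CPM at 30 weeks (3 UMIs in 1 cell) and 475 CPM at 33 weeks (53 UMIs in 4 cells). Cbr2 was 3.32-fold lower at 33 weeks, and Folr2 3.90-fold (6 against 24 UMIs), or 53.7 against 66.8 CPM without the 1 cell that holds most of it at 30 weeks. Among the lowest ratios were S100a6, Ifi27l2a, Cx3cr1, the chemokine receptor of microglia, Slc7a5, an amino acid transporter, and Pkm, a glycolytic enzyme. All 3 comparisons share the library of P301S hom at 30 weeks, the lowest in class II, with 15 members.

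Of the genes that microglia are known to take up around damaged neurons, some were nearly missing in the members and others abundant. The whole disease-associated list summed to 29290, 28360, 34090 and 32320 CPM in the members and 12870, 28150, 37330 and 27140 CPM in homeostatic microglia, with Apoe as its most abundant gene. Without the mixed cells the members were at 29290, 41580, 47070 and 29130 CPM. Cst7, a protease inhibitor, had 0, 0, 2 and 1 UMIs in the members, while the other C1q cells held it at 41.4, 1004, 794 and 990 CPM and in 8.32%, 83.5%, 71.7% and 79.9% of cells. Spp1 had at most 7 UMIs per library in the members, Itgax at most 1 and Lpl at most 3. Apoe, the lipid carrier, was abundant in the members of every library, at 22527, 20266, 26946 and 22302 CPM with the mixed cells included. Homeostatic microglia were at 448, 11554, 19666 and 10345 CPM and the other C1q cells at 947, 48547, 58418 and 44388 CPM. The members thus exceeded the other C1q cells 23.8-fold in P301S neg and were exceeded by them 2.40, 2.17 and 1.99-fold in the 3 P301S hom libraries. Free Apoe RNA was present, at 95.7 to 641 CPM in granulocyte-type cells. Without mixed cells the members of the 3 P301S hom libraries had Apoe at 29228, 37486 and 21341 CPM, less level than with them. Fth1, the heavy chain of ferritin, was likewise at 12780, 11250, 12882 and 16110 CPM in the members and at 5475, 23440, 22743 and 19948 CPM in the other C1q cells. Ctsd was at 1158, 1911, 1729 and 3108 CPM in the members, 2.52 to 5.84-fold below homeostatic microglia.

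The other lists are read against the shares of all measured genes past 2-fold, 21.2% higher and 7.51% lower with the transgene, 3.39% and 8.69% with the CD8 label, and 4.02% and 7.05% with age. On 3 to 15 genes a list, single genes decide these counts. None of the 4 or 5 measured MHC class I genes was past 2-fold in any of the 3 comparisons. Of the disease-associated list 1 of 9 genes was higher and 1 lower with the transgene, 1 of 10 higher with the CD8 label, and 1 higher and 2 lower of 10 with age. Lysosomal genes had 1 of 14 higher with the transgene (3 of 14 without mixed cells), 0 of 15 with the CD8 label (3 lower of 14 without mixed cells) and 1 of 14 lower with age. Scavenger receptors had 1 of 6 lower, 1 of 7 higher and 0 of 6. Iron genes had 1 higher and 1 lower of 6, 1 lower of 6 and 0 of 6. Interferon response genes had 1 of 3 higher, 1 of 4 higher and 1 of 3 lower, and lipid genes 1 of 4 higher, 0 of 5 and 0 of 6. Receptors and factors of macrophage identity had 1 of 9 lower, 1 of 10 higher and 1 of 10 higher. Complement genes had 2 of 3 lower with the transgene and 1 of 3 higher with the CD8 label, C3ar1 being in both counts at 3.09-fold lower and 3.02-fold higher (1.83-fold and 2.03-fold without mixed cells). Border macrophage genes outside the rule had 2 of 9 lower with the transgene and 0 of 9 without mixed cells. Their summed level was 6853 CPM in P301S neg and 3919 in P301S hom, or 5533.5 CPM without mixed cells, still lower (ratio interval 0.689 to 0.946). However, 1 of the 9 members of P301S neg held 24 Cd209f, 16 Stab1, 15 Dab2, 15 Clec10a, 12 Maf and 10 Ms4a7 UMIs. The sum was not taken without that cell, so the lower level may rest on it. The proliferation genes Mki67, Birc5, Ccnb1 and Ccnb2 had no UMI in any member.

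**Figure D4:**
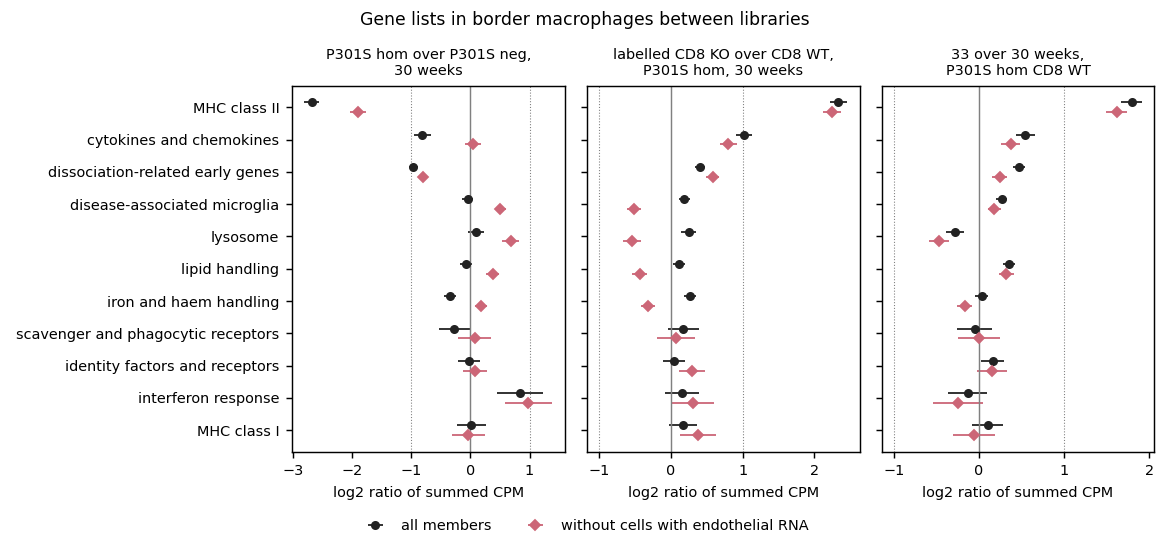
Log2 ratio of the summed CPM of each gene list in the members (horizontal axis, with intervals for counting error) for the 3 comparisons, with and without mixed cells. Dotted lines stand at 2-fold. MHC class II is at -2.68 with the transgene, 2.335 with the CD8 label and 1.79 with age, the farthest from 0 of the 11 lists drawn.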

How the data were processed

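Single-cell 3' RNA-seq was made of 4 pooled spinal cord libraries, 1 per group. The values that the authors deposited are unnormalized UMI counts for each barcode and gene, made with Cell Ranger 6.0.1 per the file headers, on mm10 per the submitters' processing notes. The annotation used upstream is not given in the sources used here. The tables hold 32285 genes.

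Barcodes with 500 or more UMIs, 200 or more genes and no more than 15% mitochondrial UMIs were used, and members were chosen by the rule given in the report. Scrublet (scanpy 1.11.5, expected rate 6%) called 1 member a doublet in each of the 3 P301S hom libraries and 0 in P301S neg. They were kept, and left out as an alternative. Counts were summed over members per library and scaled to CPM of that sum, with exact Poisson intervals for levels, exact binomial (Clopper-Pearson) intervals for shares and exact conditional binomial intervals for ratios, all at 95% and for counting error only. Ratios were taken for genes with 30 or more UMIs over both libraries and counted at 2-fold, with 5 CPM added in medians and rankings. For shares of cells with a UMI, each cell was also thinned to 1000 UMIs.

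Named genes were, per comparison, the 10 highest and 10 lowest ratios among genes of 50 or more UMIs in the pair and 50 CPM in the higher library, leaving out mitochondrial, ribosomal, haemoglobin, receptor segment, predicted, sex-linked and rule genes and genes over 2-fold higher outside C1q cells. To these came up to 6 genes of each list, and, over microglia, the 15 highest and 10 lowest. 1 gene that the rule names is not reported here. Genes named for the class II split and for single cells were chosen after their values were seen. The members and lists were chosen with earlier results of these data known. Gene positions are from GENCODE M21 and promoters from RefSeq GRCm38.p6. Scripts were tested on simulated data. Alternatives were other scalings (edgeR 4.0.16 TMM factors, R 4.3.3), filters, folds, weightings and subsets of members. Figures were drawn with matplotlib 3.10.9, and values computed with scipy 1.17.1, pandas 2.3.3 and numpy 2.4.6 under Python 3.11.15.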

Additional observations from a re-analysis of the deposited data

How the results depend on the processing

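With 9 to 18 members per library, values rest on few cells and no alternative replaces a second library. No paired analysis was possible because each group is 1 library, so no replicate could be left out either. Leaving out the mixed cells or the 1 member with most UMIs of a gene, and class II limits of 0.25% and 1%, were chosen after seeing the data. Of the alternative values of the main results, 94 stayed near the reported value, 61 moved and 1 reversed.

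As a share of C1q cells the members were 0.629%, 0.736%, 1.06% and 0.549%. Counts of genes past the fold, higher and lower, depended on filter and cells. With a 60 UMI filter they were 46 and 30 (transgene), 17 and 26 (CD8 label) and 20 and 21 (age). With only 1 UMI required in each library they were 860 and 1063, 1016 and 1302, and 1158 and 1166. At 1.5-fold, 137 genes were lower with the transgene, 85 higher and 200 lower with the CD8 label, and 132 and 201 with age. Without mixed cells the counts were 46 and 31 with the transgene, 39 lower with the CD8 label and 22 and 41 with age. Without any cell holding RNA of other lineages they were 19 and 12 with the transgene, 13 lower with the CD8 label and 13 lower with age. Without cells holding Tmem119, Sall1 or Siglech, 41 were lower with the CD8 label and 46 with age. Without those holding Spic, Vcam1 or Cd5l, 75 were higher with the transgene and 46 lower with the CD8 label. As means of per-cell shares, 130 were lower with the CD8 label and 170 with age. In female cells 14 were higher with age. TMM factors moved every log2 ratio by -0.145 (transgene), 0.10 (CD8 label) and 0.165 (age), giving 52 genes lower with age and 293 lower in members than in microglia of all 4 libraries.

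The log2 ratio of the summed class II list was -2.68 with the transgene, 2.335 with the CD8 label and 1.79 with age. In that order it was -3.95, 4.46 and 3.46 with at least 4 rule genes, -1.70, 4.355 and 3.73 without RNA of other lineages, -3.18, 1.89 and 1.49 without Tmem119, Sall1 or Siglech, and -1.745, 1.56 and 2.03 without Spic, Vcam1 or Cd5l. With the transgene and with age it was -1.90 and 1.61 without mixed cells, -2.83 and 1.96 with TMM factors, -2.465 and 2.015 as means of shares, and -1.65 and 1.44 in female cells. Without doublets it was -2.55 with the transgene and 2.695 with the CD8 label. The female cells of P301S hom include mixed cells at both ages.

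Signs changed where few cells were left. Male cells labelled CD8 KO over male cells at 33 weeks (3 against 7) gave -0.90 for the class II list, -1.25 for the cytokine list, -0.95 for H2-Aa, -0.76 for H2-Ab1, -0.84 for H2-Eb1, -0.90 for Cd74, -1.71 for H2-DMb1, -0.48 for Ccl3, -1.365 for Ccl4, -2.28 for Cxcl1, -2.11 for Cxcl2, -0.19 for Cd83 and -0.16 for Il1b. This setting also changes the library compared with, and both sides hold a mixed cell, of 23292 and 29814 UMIs. Those mixed cells had class II shares of 0.00859% and 0.252%, and the male ratios were not taken without them. In female cells Cxcl2 was 0.62 with the transgene and Nr4a1 -0.83 with age. For the CD8 label Ccl4 was -0.71 without Spic, Vcam1 or Cd5l and -3.03 without RNA of other lineages. Without Tmem119, Sall1 or Siglech, Dab2 was 0.60 with the transgene. The cause was not tested.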

Other observations

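In P301S hom at 30 weeks 1 member, with 9771 UMIs, carried a set of genes that the others had little of. It held 53 of the library's 63 member UMIs of S100a6, 33 of 35 of S100a4, and 26 of 37 of S100a10, all calcium-binding proteins. It also held 38 of 39 of Lgals3, a galectin of activated macrophages, 41 of 68 of Crip1, 37 of 57 of the interferon-induced gene Ifi27l2a and 26 of 34 of the chemokine Ccl9. Its border genes were present, with 12 Mrc1 and 9 Ms4a7 UMIs, and it had no UMI of H2-Aa or of the endothelial genes Flt1 and Cldn5. S100a6 and Ifi27l2a are thus among the lowest ratios with age on the strength of this cell.

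In P301S neg 1 member held 24 of the 25 UMIs of Cd209f, a lectin of border macrophages, found in all members of the 4 libraries. Fcna, a ficolin of macrophages, had 28 of its 34 member UMIs in 1 cell of the same library. Ccl12, a chemokine of the Ccl2 family, was at 463, 742, 779 and 545 CPM in P301S neg, P301S hom at 30 weeks, P301S hom at 33 weeks and, last, the library labelled CD8 KO, in 2, 6, 9 and 4 cells. Vcam1, an adhesion molecule, was at 92.6, 209, 466 and 359 CPM, and Spic, the factor of red pulp macrophages, had 2 UMIs in all.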
